A study of Mus musculus with 12 samples.

Results

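The genes of the Wnt pathway were followed as Gata6 turned mouse ES cells XEN-like, with and without *Sox7*. They were all probes named for a Wnt ligand, a frizzled receptor (*Fzd*), or a secreted antagonist of the *Dkk* or *Sfrp* families, together with 25 further named genes of the pathway, among them *Lrp5*, *Lrp6*, *Axin2*, *Lef1* and *Sp5*. This gave 81 probes for 62 genes, of 55681 probes and 34836 gene names on the array. Of these genes, 50 gave a signal clear of background throughout at least 1 group and were tested, among 18992 gene names tested in all.

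The series asked whether Gata6 needs *Sox7*, a SoxF transcription factor gene, to turn ES cells into cells resembling XEN cells, the stem cells of the extraembryonic endoderm. All cells carried Gata6GR, mouse Gata6 fused to the ligand-binding domain of the human glucocorticoid receptor and driven by the CAG promoter, so that dexamethasone (Dex) moves it into the nucleus. The 4 groups, with 3 arrays each, were *Sox7* (+/-) ES cells without Dex, *Sox7* (+/-) XEN-like cells with Dex, *Sox7* (-/-) ES cells without Dex and *Sox7* (-/-) XEN-like cells with Dex, all at day 4 and all kept with LIF. The controls were therefore heterozygous as well, with the coding exons of 1 *Sox7* allele replaced, and wild-type cells were not analysed here. No group had Dex without Gata6GR. Effects of Dex through the cells' own glucocorticoid receptor therefore cannot be told apart from those of Gata6. The *Sox7* (-/-) cells came from the Gata6GR-carrying *Sox7* (+/-) line by high-dose puromycin selection, and the study names 1 line per genotype, so genotype and line cannot be told apart. Nothing in the labels says that the 3 arrays of a group came from separate cultures, and the source labels give 1 replicate number to all 3 arrays of the *Sox7* (+/-) ES cells. The p-values therefore measure only the spread between these arrays, which may be technical.

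Each value below is the processed signal of the brightest tested probe of a gene, as a percentage of the 75th percentile of its array, and is called the relative signal. Values of 3 arrays are given in replicate order, those without Dex first. Differences are log2 differences from limma with their standard errors (SE), over 3 arrays a group. A gene was called higher or lower at a Benjamini-Hochberg adjusted p under 0.05 with a change of over 2-fold. A group in which no array was well above background has only a bound, and its change is written as at least a given fold. The third *Sox7* (+/-) XEN-like array stood apart. It lay more than 2-fold from the mean of its replicates for 8.30% of the tested probes, against 0.663 to 3.27% for the 11 other arrays, and for 9 of the 50 Wnt pathway genes. The arrays lay on 2 slides. All of the *Sox7* (-/-) ES arrays shared slide 1 with *Sox7* (-/-) XEN-like replicate 1, and the 8 others were on slide 2. A fit with slide as a block thus takes its slide effect only from the *Sox7* (-/-) XEN-like arrays. Among these, replicate 1 alone was on slide 1.

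The labels were checked first. *Sox7* itself had a relative signal of 218 to 229% in *Sox7* (+/-) ES cells and 490 to 688% in *Sox7* (+/-) XEN-like cells, and it was not well above background on any of the 6 *Sox7* (-/-) arrays. Of 8 ES cell markers, 6 were lower with Dex in *Sox7* (+/-) cells and 7 in *Sox7* (-/-) cells, and of 10 primitive endoderm markers 8 and 9 were higher. *Klf4* was higher with Dex in *Sox7* (+/-) cells, against the direction of its list. Fibroblast markers were lower with Dex in 3 of 3 tested in *Sox7* (+/-) cells and in 2 of 3 in *Sox7* (-/-) cells, with summed relative signals of 352 to 431% on the ES arrays and 35.7 to 45.1% on the XEN-like arrays, and *Postn* and *Lum* not well above background in any group. Trophectoderm markers were lower in 4 and higher in 1 of 5 tested in *Sox7* (+/-) cells, and lower in 2 and higher in 1 in *Sox7* (-/-) cells. Primitive streak markers were lower in 3 and 2 of 4. Of 6 visceral endoderm markers tested, 2 were higher and 3 lower in *Sox7* (+/-) cells, against 5 higher and 0 lower in *Sox7* (-/-) cells, and 5 of 7 parietal endoderm markers were higher in each. Neural ectoderm markers were lower in 3 and higher in 1 of 4 tested in *Sox7* (+/-) cells and lower in 2 in *Sox7* (-/-) cells, with sums of 1403 to 2019% on the ES arrays and 221 to 270.2% on the XEN-like arrays, and *Pax6* not well above background in any group. Of 8 glucocorticoid response genes, *Zbtb16* was higher and *Fkbp5*, *Dusp1* and *Mt2* were lower with Dex in each genotype. Summed relative signals of this list were 24027 to 27434% on the ES arrays and 3692 to 5952% on the XEN-like arrays. The part of all these marker genes in the Wnt results was not tested. In bulk RNA, fewer cells of a type and less RNA per cell cannot be told apart.

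Wnt proteins are secreted lipid-modified ligands. Porcupine (*Porcn*) attaches the lipid and Wntless (*Wls*) carries the ligand to the cell surface, where it binds a frizzled receptor with the co-receptor LRP5 or LRP6. Binding stops the destruction complex of APC, AXIN and GSK3 from marking beta-catenin for degradation, and beta-catenin then acts with TCF/LEF factors on target genes such as *Axin2* and *Sp5*. In ES cells this branch supports self-renewal, and in the early embryo it is needed to form the primitive streak.

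With Dex, the Wnt pathway genes moved in both directions. In *Sox7* (+/-) cells 12 of the 50 tested were called higher and 19 lower, that is 24% and 38% of them, beside 11.0% and 14.1% of all gene names tested. In *Sox7* (-/-) cells 14 were higher and 14 lower, 28% each, beside 14.6% and 14.1% of all gene names. The median absolute log2 difference of the members was 1.31 and 1.15 in the 2 genotypes, against 0.51 and 0.55 over all gene names, while their median signed difference was close to 0, at 0.01 and 0.05. Both comparisons called 11 genes higher and 12 genes lower, 1 gene, *Wnt4*, was called in opposite directions, and 15 of the 50 were called in neither. With scaling to spike-in controls the split in *Sox7* (+/-) cells became 7 higher and 21 lower, and the authors' values, which are neither scaled nor background-subtracted, gave 7 higher and 18 lower, while the median of all tested probes moved from 0.16 to -0.34 and -0.23. Normexp background correction, run with an offset of 50 units, gave 11 higher and 10 lower there, without the excess of lower calls. The 31 genes well above background on all 12 arrays gave 9 higher and 8 lower. That filter leaves out genes that fell to background, such as *Wnt6*, *Wnt5b*, *Sfrp2* and *Sp5*, so it cannot decide on the excess. In turn, *Sp5*, *Wnt3*, *Wnt7a*, *Wnt8a* and *Wnt10a* were tested only through *Sox7* (+/-) ES cells and could hardly be called higher with Dex. *Fzd6* was tested only through *Sox7* (-/-) XEN-like cells. Scaling to spike-in controls ended the *Sox7* (+/-) calls of *Fzd1* (0.70), *Gsk3b* (0.60), *Lrp6* (0.81), *Tcf7l2* (0.83) and *Wnt9a* (0.75). With slide as a block *Fzd6* (2.43), *Tcf7l2* (0.92) and *Wnt10a* (-0.61) lost their call in *Sox7* (-/-) cells and *Lrp6* (1.03) gained one.

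**Figure D1:**
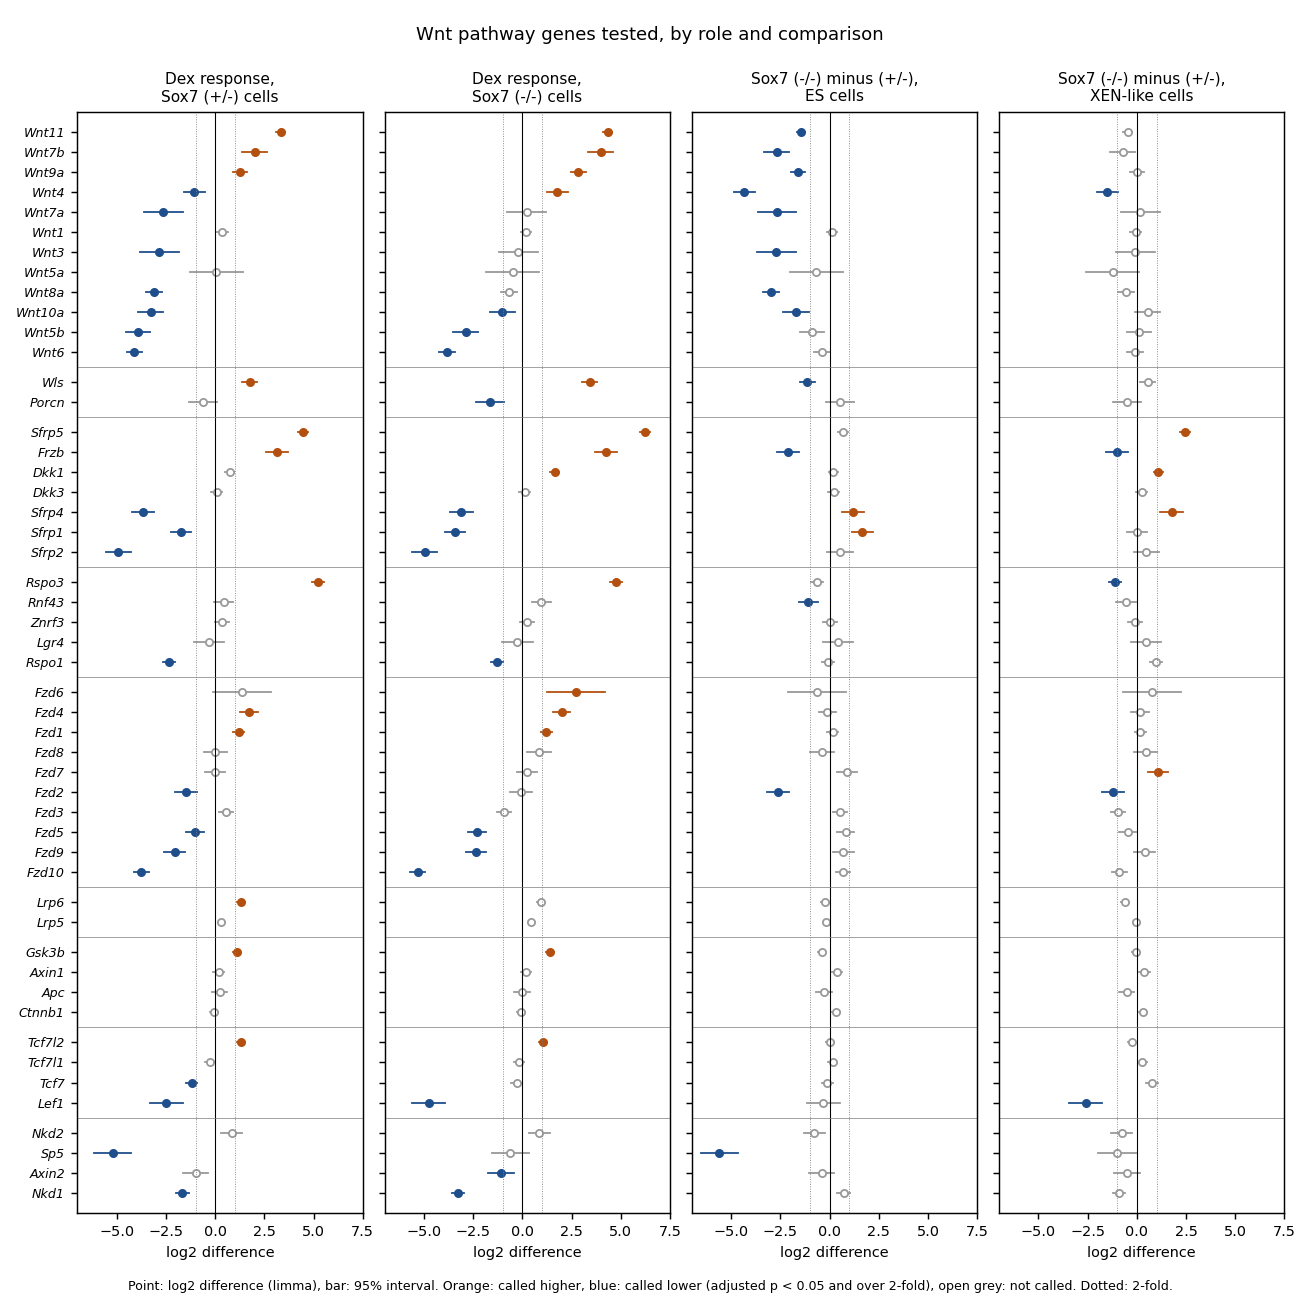
The log2 difference of each of the 50 tested Wnt pathway genes (point, with its 95% interval from limma) is plotted on the x axis for both Dex responses and both comparisons of the genotypes, with genes grouped by role on the y axis and coloured where called. Secreted antagonists and ligands spread widely to both sides with Dex, the 4 genes of the destruction complex and beta-catenin stay near 0 apart from *Gsk3b*, and the ligands of the ES cell comparison that are called all lie to the left.

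Among the 12 tested ligands, 3 rose with Dex in both genotypes. *Wnt11*, a ligand known mainly for beta-catenin-independent signalling, had a relative signal of 61.9, 60.3 and 60.6% in *Sox7* (+/-) ES cells and 588, 599 and 659% in the XEN-like cells. The *Sox7* (-/-) cells went from 25.7, 22.3 and 19.2% to 469, 452 and 425%. No XEN-like array overlapped an ES array, and the log2 differences were 3.33 ± 0.10 (adjusted p = 1.8e-09, limma) and 4.33 ± 0.10 (adjusted p = 2.0e-10, limma). *Wnt9a* rose by 1.24 ± 0.16 in *Sox7* (+/-) cells (adjusted p = 7.9e-05, limma), with ES arrays at 91.1 to 92.5% and XEN-like arrays at 158 to 269%, and by 2.85 ± 0.16 in *Sox7* (-/-) cells (adjusted p = 1.2e-07, limma), with ES arrays at 28.3 to 32.7% and XEN-like arrays at 212 to 223%. *Wnt7b* was at 27.3, 27.0 and 22.1% in *Sox7* (+/-) ES cells and at 120.0, 62.1 and 140.2% in the XEN-like cells, a log2 difference of 2.002 ± 0.285 (adjusted p = 0.00014, limma). It was not well above background on any *Sox7* (-/-) ES array and read 64.1, 60.3 and 61.7% with Dex, at least 6.86-fold higher (adjusted p = 6.6e-07, limma).

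In *Sox7* (+/-) cells 7 of the 12 tested ligands fell and 3 rose, beside 14.1% and 11.0% of all gene names. In *Sox7* (-/-) cells 3 fell and 4 rose, beside 14.1% and 14.6%. Of the 7, *Wnt3*, *Wnt7a*, *Wnt8a* and *Wnt10a* were tested only through *Sox7* (+/-) ES cells. A fall of these in *Sox7* (-/-) cells could hardly be measured, so the 2 counts are not alike. *Wnt6* had a relative signal of 140.1, 138 and 131% in *Sox7* (+/-) ES cells and was not well above background on any array of the XEN-like cells, so it was at least 13.9-fold lower (adjusted p = 2.1e-08, limma). The *Sox7* (-/-) cells had *Wnt6* at 106, 115 and 95.3% without and 6.14, 7.74 and 8.45% with Dex, the last 2 of these well above background (log2 difference -3.83 ± 0.18, adjusted p = 2.7e-08, limma). *Wnt5b* was lost from view in both genotypes, from 48.5, 52.0 and 58.2% in *Sox7* (+/-) ES cells (at least 5.62-fold lower, adjusted p = 8.0e-07, limma) and from 34.0, 24.7 and 26.3% in *Sox7* (-/-) ES cells (at least 3.75-fold lower, adjusted p = 6.5e-06, limma). A further 3 ligands, *Wnt3*, *Wnt7a* and *Wnt8a*, were well above background in *Sox7* (+/-) ES cells alone of the 4 groups. *Wnt3*, which the embryo needs for gastrulation, read 16.1, 21.5 and 17.8% there and was at least 1.96-fold lower with Dex (adjusted p = 0.00028, limma). *Wnt7a* read 13.7, 17.0 and 15.7% and was at least 1.64-fold lower (adjusted p = 0.00045, limma), and *Wnt8a* read 22.3, 20.8 and 21.1% and was at least 2.28-fold lower (adjusted p = 1.5e-07, limma). The bounds of *Wnt3* and *Wnt7a* are under 2-fold, so these calls rest partly on values near background.

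*Wnt10a* and *Wnt4* fell in *Sox7* (+/-) cells as well. *Wnt10a* read 21.5, 17.6 and 29.0% in *Sox7* (+/-) ES cells and was at least 2.36-fold lower with Dex (adjusted p = 4.0e-06, limma). It read 9.96, 6.12 and 5.12% in *Sox7* (-/-) ES cells, well above background on the first array only, and was on no array with Dex. Limma called it lower with Dex (adjusted p = 0.0098), but no fold is given, since that group has only a bound. The call was lost, with fitted log2 differences of under 2-fold, without *Sox7* (-/-) ES replicate 1 (-0.74), without *Sox7* (-/-) XEN-like replicate 2 (-0.79) or within slide 1 (-0.61). *Wnt4*, a ligand of both branches of the pathway, had a relative signal of 284, 269.7 and 274% in *Sox7* (+/-) ES cells and 121, 108 and 175% with Dex. With *Sox7* deleted it went from 14.0, 15.3 and 12.1% to 68.2, 42.2 and 35.0%. The 2 ES groups stood on either side of both XEN-like groups, and the log2 difference was -1.06 ± 0.24 in *Sox7* (+/-) cells (adjusted p = 0.0030, limma) and 1.76 ± 0.24 in *Sox7* (-/-) cells (adjusted p = 8.3e-05, limma). The fall was under 2-fold without *Sox7* (+/-) XEN-like replicate 2 (-0.92).

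*Wnt1* and *Wnt5a* were not called in any comparison. *Wnt1* lay between 83.3 and 132.9% on all 12 arrays. *Wnt5a*, a beta-catenin-independent ligand, read 33.0, 41.4 and 5.73% in *Sox7* (+/-) XEN-like cells, the third array being the one that stood apart, and 20.5, 18.8 and 18.2% in the ES cells, and its interval for the log2 difference, -1.29 to 1.40, holds both a fall and a rise of over 2-fold. Without that array the XEN-like groups differed in *Wnt5a*, which was lower with *Sox7* deleted, at -2.12 ± 0.24 (adjusted p = 0.00020, limma) against -1.22 ± 0.60 with it.

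**Figure D2:**
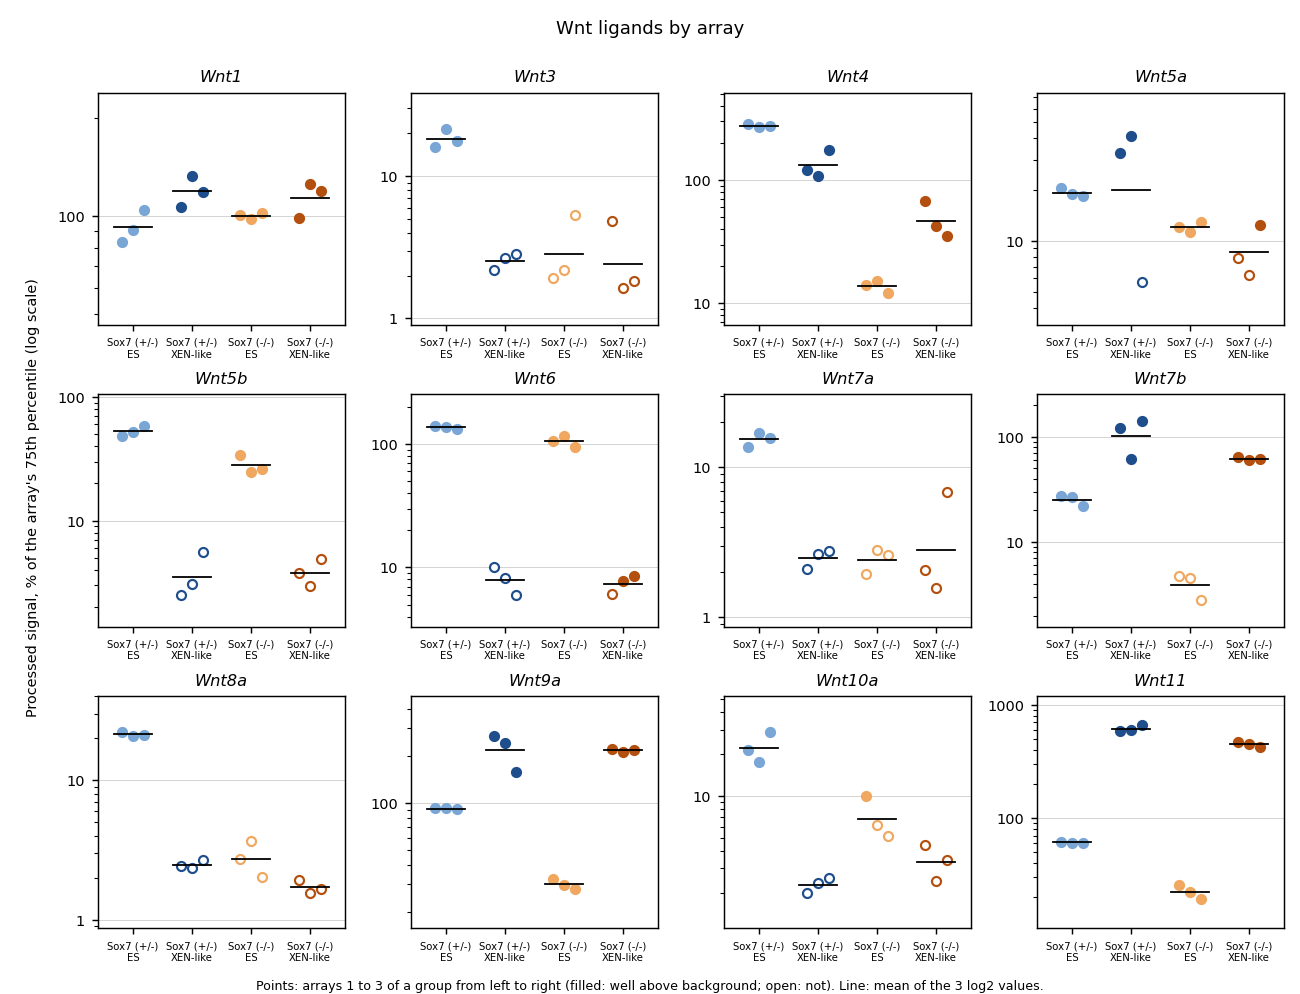
The relative signal of the 12 tested Wnt ligands (y axis, percent of the array's 75th percentile, log scale with its own range in each panel) is plotted for each of the 12 arrays by group. Filled points are well above background, open points are not, and the line is the mean of the log2 values. *Wnt11*, *Wnt9a* and *Wnt7b* are higher in both XEN-like groups, *Wnt6* and *Wnt5b* are lower in both, and *Wnt3*, *Wnt7a* and *Wnt8a* have filled points in *Sox7* (+/-) ES cells only.

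Of the 2 genes for making and exporting ligands, *Wls* rose. Its relative signal was 184, 189 and 179% in *Sox7* (+/-) ES cells and 744, 732 and 432% in the XEN-like cells (log2 difference 1.75 ± 0.18, adjusted p = 1.1e-05, limma), and 87.6, 78.6 and 87.1% and 872, 936 and 907% in *Sox7* (-/-) cells (3.42 ± 0.18, adjusted p = 5.3e-08, limma). Both XEN-like groups were above all ES arrays. *Porcn* went the other way. It read 721, 729 and 757% in *Sox7* (-/-) ES cells and 220.2, 256 and 234% with Dex, a log2 difference of -1.64 ± 0.32 (adjusted p = 0.0011, limma). In *Sox7* (+/-) cells it read 518, 520.2 and 515% and 473, 471 and 169% (-0.63 ± 0.32, adjusted p = 0.11, limma), where the third XEN-like array alone was far from the ES level. The difference between these responses was -1.01 ± 0.45 (adjusted p = 0.13, limma), and it was -1.504 without that array (adjusted p = 4.8e-06, limma).

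The secreted antagonists split into genes that rose and genes that fell. SFRP proteins, FRZB included, bind Wnt ligands, and DKK1 blocks LRP5 and LRP6. *Sfrp5*, a gene of the visceral endoderm in the embryo, had a relative signal of 47.7, 39.2 and 36.5% in *Sox7* (+/-) ES cells and 919.6, 881 and 885% with Dex. Without *Sox7*, *Sfrp5* went from 68.2, 71.1 and 57.3% to 5258, 4898 and 4491%. The groups did not overlap, and the log2 differences were 4.45 ± 0.12 (adjusted p = 6.9e-10, limma) and 6.22 ± 0.12 (adjusted p = 5.3e-11, limma), the latter the largest fitted difference of the 50 tested members over the 5 comparisons. *Frzb* rose from 7.52, 11.9 and 11.8% to 105, 117 and 59.1% in *Sox7* (+/-) cells (log2 difference 3.14 ± 0.25, adjusted p = 1.8e-06, limma). In *Sox7* (-/-) ES cells it was not well above background on any array, and it read 43.5, 47.9 and 43.0% with Dex, at least 4.95-fold higher (adjusted p = 1.4e-07, limma). *Dkk1* was called higher in *Sox7* (-/-) cells. It read 658, 613 and 558% and 1051, 1111 and 878% in *Sox7* (+/-) cells (0.73 ± 0.10, adjusted p = 0.00011, limma) and 686, 733 and 651% and 2098, 2254 and 2123% in *Sox7* (-/-) cells (1.65 ± 0.10, adjusted p = 2.0e-07, limma), and the responses differed by 0.92 ± 0.14 (adjusted p = 0.0012, limma), short of 2-fold.

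*Sfrp2*, *Sfrp4* and *Sfrp1* fell with Dex in both genotypes. *Sfrp2* had a relative signal of 165, 163 and 137% in *Sox7* (+/-) ES cells and was not well above background on any XEN-like array of that genotype, at least 16.4-fold lower (adjusted p = 1.8e-07, limma). Between *Sox7* (-/-) groups it went from 223, 229.5 and 214% to 9.09, 5.11 and 7.76% (-4.96 ± 0.29, adjusted p = 1.3e-07, limma), with 1 of the 3 XEN-like arrays well above background. *Sfrp4* read 93.4, 94.8 and 98.2% and 11.97, 5.42 and 6.33% in *Sox7* (+/-) cells (-3.68 ± 0.25, adjusted p = 6.6e-07, limma) and 219, 223 and 212% and 31.7, 20.6 and 24.8% in *Sox7* (-/-) cells (-3.10 ± 0.25, adjusted p = 1.9e-06, limma). In both genotypes all ES arrays were above all XEN-like arrays, and in *Sox7* (+/-) XEN-like cells 1 of 3 arrays was well above background. *Sfrp1* read 50.5, 53.8 and 49.2% and 16.5, 11.9 and 18.0% in *Sox7* (+/-) cells (-1.75 ± 0.23, adjusted p = 8.4e-05, limma), and 179.6, 151 and 158% and 12.2, 22.8 and 12.5% in *Sox7* (-/-) cells (-3.42 ± 0.23, adjusted p = 4.2e-07, limma). *Dkk3* was not called in any comparison and lay between 56.6 and 84.2% on all 12 arrays.

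R-spondins are secreted proteins that raise the sensitivity of a cell to Wnt by removing ZNRF3 and RNF43, ubiquitin ligases that clear frizzled receptors from the surface. The 2 tested R-spondin genes moved in opposite directions. *Rspo3* had a relative signal of 24.7, 20.7 and 18.7% in *Sox7* (+/-) ES cells and 816, 703 and 862% with Dex, and 15.3, 11.8 and 14.2% and 403, 342 and 371% in *Sox7* (-/-) cells. No arrays of ES and XEN-like cells overlapped, and the log2 differences were 5.22 ± 0.13 (adjusted p = 6.3e-10, limma) and 4.76 ± 0.13 (adjusted p = 7.5e-10, limma). *Rspo1* fell from 136, 123 and 127% to 31.0, 21.2 and 25.3% in *Sox7* (+/-) cells (-2.33 ± 0.13, adjusted p = 1.5e-07, limma) and from 126, 115 and 122% to 52.2, 43.9 and 54.6% in *Sox7* (-/-) cells (-1.27 ± 0.13, adjusted p = 1.2e-05, limma). *Rnf43*, *Znrf3* and the R-spondin receptor gene *Lgr4* were not called in either Dex response, with log2 differences of 0.42, 0.34 and -0.32 in *Sox7* (+/-) cells and 0.97, 0.24 and -0.27 in *Sox7* (-/-) cells.

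**Figure D3:**
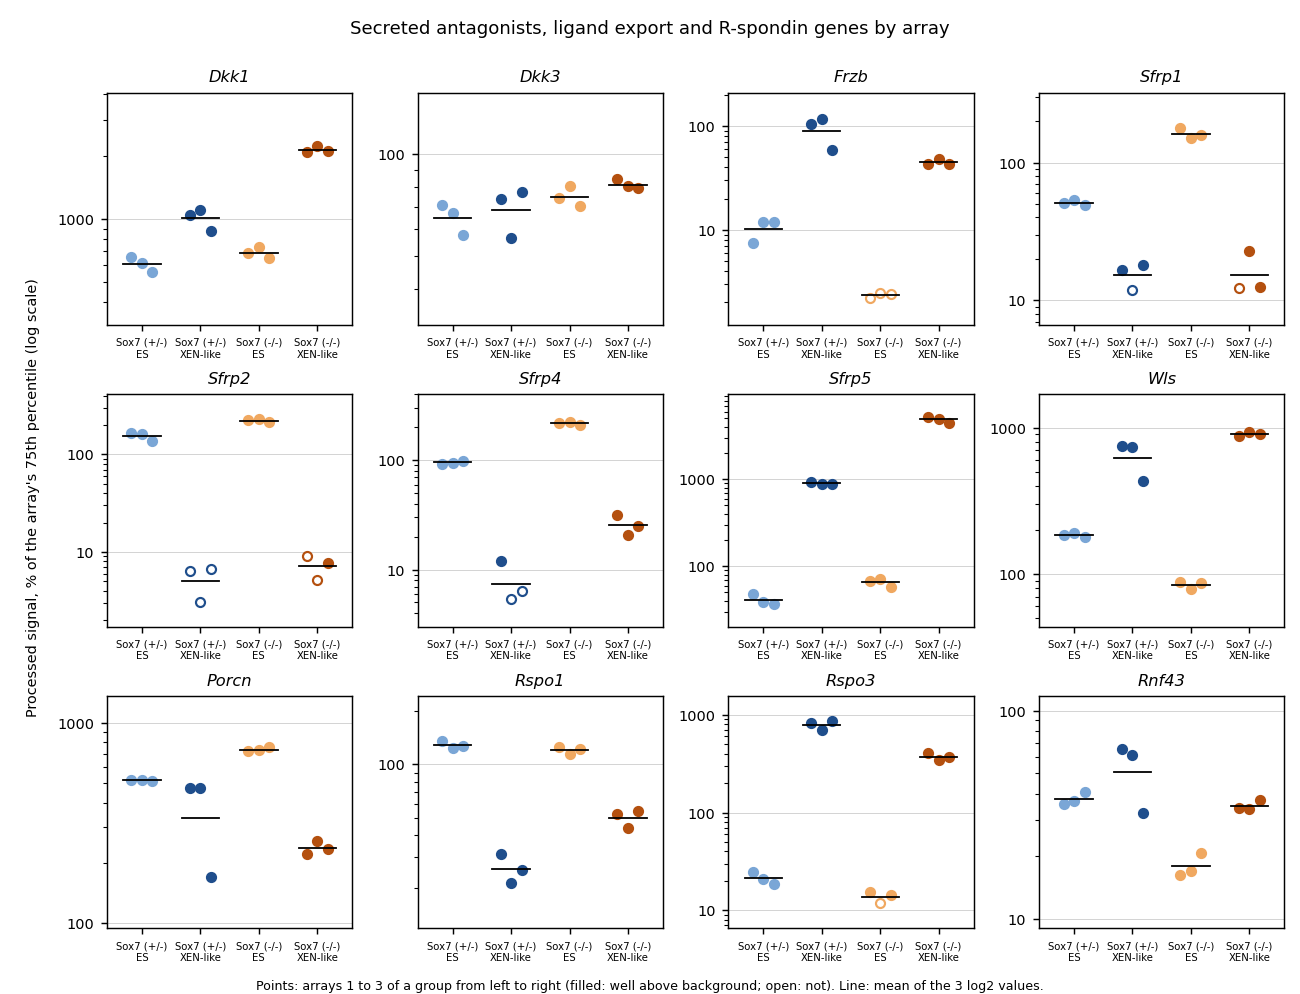
The relative signal of 7 secreted antagonists, *Wls*, *Porcn*, *Rspo1*, *Rspo3* and *Rnf43* (y axis, percent of the array's 75th percentile, log scale with its own range in each panel) is plotted for each of the 12 arrays by group, with filled points well above background and a line at the mean of the log2 values. *Sfrp5*, *Frzb*, *Rspo3* and *Wls* are higher in both XEN-like groups and *Sfrp1*, *Sfrp2*, *Sfrp4* and *Rspo1* are lower in both.

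The 10 frizzled receptor genes were all tested, and 3 of them, *Fzd10*, *Fzd9* and *Fzd5*, fell in both genotypes. *Fzd10* had a relative signal of 293, 291 and 318% in *Sox7* (+/-) ES cells and 20.4, 17.8 and 30.1% with Dex (-3.76 ± 0.17, adjusted p = 2.8e-08, limma), and 446, 526 and 475% and 11.2, 11.2 and 13.6% in *Sox7* (-/-) cells (-5.33 ± 0.17, adjusted p = 1.8e-09, limma). *Fzd9* changed by -2.06 ± 0.23 (adjusted p = 2.8e-05, limma), with ES arrays at 67.2 to 85.0% and XEN-like arrays at 14.0 to 27.3%, and by -2.36 ± 0.23 (adjusted p = 8.0e-06, limma), with ES arrays at 106 to 141% and XEN-like arrays at 21.8 to 24.1%. *Fzd5* changed by -2.30 ± 0.20 in *Sox7* (-/-) cells (adjusted p = 3.0e-06, limma), from 68.5, 54.9 and 64.3% to 14.0, 10.8 and 13.5%. In *Sox7* (+/-) cells its change of -1.02 ± 0.20 (adjusted p = 0.0013, limma) was near the 2-fold limit, and it was not called without *Sox7* (+/-) ES replicate 2 (-0.99) or without *Sox7* (+/-) XEN-like replicate 1 (-0.76).

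*Fzd4* and *Fzd1* rose in both genotypes. *Fzd4*, which also serves as the receptor for norrin, had a relative signal of 59.5, 61.1 and 58.2% in *Sox7* (+/-) ES cells and 247, 237 and 132% with Dex (1.73 ± 0.20, adjusted p = 3.3e-05, limma), and 54.2, 49.6 and 62.3% and 219, 223 and 216% in *Sox7* (-/-) cells (1.99 ± 0.20, adjusted p = 9.4e-06, limma). All XEN-like arrays were above all ES arrays, the third *Sox7* (+/-) XEN-like array being the lowest of them. *Fzd1* rose by 1.19 ± 0.13 (adjusted p = 1.6e-05, limma) and 1.21 ± 0.13 (adjusted p = 1.1e-05, limma), with ES arrays at 20.1 to 25.7% and XEN-like arrays at 45.2 to 58.6% and, in *Sox7* (-/-) cells, ES arrays at 22.3 to 27.2% and XEN-like arrays at 53.4 to 60.6%. *Fzd2* read 362, 370.2 and 332% and 164, 168 and 76.9% in *Sox7* (+/-) cells (-1.47 ± 0.25, adjusted p = 0.00049, limma). Without *Sox7* it lay between 51.1 and 61.0% with or without Dex (-0.07 ± 0.25, adjusted p = 0.81, limma). *Fzd6* was not well above background on any *Sox7* (-/-) ES array and read 13.1, 15.3 and 21.6% with Dex, at least 1.805-fold higher (adjusted p = 0.0041, limma), while in *Sox7* (+/-) XEN-like cells it read 17.2, 17.5 and 2.91% and was not called unless the third array was left out (2.20). The difference between the *Fzd6* responses did not pass the test (1.40 ± 0.94, adjusted p = 0.30, limma). *Fzd3*, *Fzd7* and *Fzd8* were not called in either Dex response.

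Of the co-receptors, *Lrp6* rose in *Sox7* (+/-) cells from a relative signal of 725, 679 and 672% to 1596, 1658 and 1877% (1.30 ± 0.09, adjusted p = 6.2e-07, limma). With both alleles lost it went from 596, 535 and 610.0% to 1180.4, 1035 and 1181%, at 0.96 ± 0.09 just under 2-fold (adjusted p = 4.9e-06, limma). The responses differed by -0.34 ± 0.13 (adjusted p = 0.073, limma), which did not pass. *Lrp5* was not called, with log2 differences of 0.31 and 0.44.

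Inside the cell, *Ctnnb1* (beta-catenin), *Apc* and *Axin1* were not called in any of the 5 comparisons. The 95% interval of the Dex difference was -0.26 to 0.15 and -0.28 to 0.14 for *Ctnnb1*, -0.09 to 0.45 and -0.08 to 0.46 for *Axin1*, and -0.16 to 0.62 and -0.40 to 0.38 for *Apc*, in *Sox7* (+/-) and *Sox7* (-/-) cells. These intervals lie within 2-fold. *Gsk3b* rose by 1.09 ± 0.08 (adjusted p = 1.5e-06, limma) and 1.40 ± 0.08 (adjusted p = 1.8e-07, limma), with ES arrays at 752 to 809% and XEN-like arrays at 1601 to 1783% and, in *Sox7* (-/-) cells, ES arrays at 567 to 628% and XEN-like arrays at 1456 to 1757%. Its 3 probes disagreed, since 1 of the other 2 gave -0.25 in *Sox7* (-/-) cells. With the mean of its probes it was called in neither genotype (0.86 and 0.82), and in *Sox7* (+/-) cells its call was also lost with quantile normalization (0.88), centring on the median of the probes above background (0.98), scaling to spike-in controls (0.60) and the authors' unscaled values (0.64). Of 17 further genes of cytoplasmic transduction that were tested, such as the *Dvl* and casein kinase genes, none was called by limma in any of the 5 comparisons. At an unadjusted p under 0.05, 11 and 13 of them passed in the 2 Dex responses, with absolute log2 differences of at most 0.95 and 0.94. Of all gene names, 11.0% and 14.6% were called higher and 14.1% and 14.1% lower in these 2 responses. Between XEN-like cells 4.15% were called higher and 3.41% lower, between ES cells 1.97% and 6.63%, and for the difference between responses 7.05% and 3.16%. Few calls among 17 genes would thus be looked for in the last 3 comparisons.

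The TCF/LEF factor genes diverged. *Lef1*, an activating partner of beta-catenin, had a relative signal of 262, 252 and 273% in *Sox7* (+/-) ES cells and 59.4, 62.7 and 27.2% with Dex (-2.49 ± 0.37, adjusted p = 0.00021, limma). Its *Sox7* (-/-) values went from 195, 227 and 211% to 8.82, 4.36 and 11.99% (-4.77 ± 0.37, adjusted p = 1.3e-06, limma), with 1 of the 3 XEN-like arrays well above background. *Tcf7l2* rose by 1.32 ± 0.09 (adjusted p = 8.1e-07, limma) and 1.06 ± 0.09 (adjusted p = 3.3e-06, limma), with ES arrays at 77.2 to 92.4% and XEN-like arrays at 196 to 215% and, in *Sox7* (-/-) cells, ES arrays at 81.0 to 90.9% and XEN-like arrays at 161 to 192%, and its other 2 probes gave 1.997 and 1.89 in *Sox7* (+/-) cells. With *Sox7* deleted those probes gave 3.18 and, from a dim ES signal, at least 6.32-fold. *Tcf7* fell in *Sox7* (+/-) cells, from 104, 101 and 111% to 51.3, 52.6 and 36.4% (-1.19 ± 0.13, adjusted p = 1.8e-05, limma), and changed by -0.29 ± 0.13 in *Sox7* (-/-) cells (adjusted p = 0.065, limma), where it was not called. The *Tcf7* responses differed by 0.89 ± 0.18 (adjusted p = 0.0053, limma), short of 2-fold. *Tcf7l1*, a repressor in ES cells, was not called in any comparison and lay between 123.9 and 198% on all 12 arrays.

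Among 4 target and feedback genes of the pathway, 2 were called lower with Dex in each genotype. *Sp5* had a relative signal of 166, 195 and 199% in *Sox7* (+/-) ES cells. It was not well above background on any array of the other 3 groups, so it was at least 19.8-fold lower with Dex in *Sox7* (+/-) cells (adjusted p = 2.2e-06, limma). *Nkd1*, which codes for a feedback inhibitor acting on Dishevelled, read 79.7, 74.6 and 68.2% and 20.1, 22.5 and 28.1% in *Sox7* (+/-) cells (-1.67 ± 0.14, adjusted p = 3.2e-06, limma), and 123, 127 and 115% and 13.7, 13.8 and 10.4% in *Sox7* (-/-) cells (-3.28 ± 0.14, adjusted p = 1.5e-08, limma). *Axin2*, a target gene much used to read the pathway, was well above background on 2 of 3 arrays in either XEN-like group. It read 27.7, 31.9 and 34.4% and 18.5, 21.4 and 9.83% in *Sox7* (+/-) cells (-0.99 ± 0.29, adjusted p = 0.013, limma), and 23.2, 19.7 and 28.4% and 8.46, 14.8 and 10.9% in *Sox7* (-/-) cells (-1.08 ± 0.29, adjusted p = 0.0075, limma). The difference between these responses was -0.10 ± 0.41 (adjusted p = 0.89, limma). The call in *Sox7* (-/-) cells was lost without *Sox7* (-/-) ES replicate 3 (-0.95) or *Sox7* (-/-) XEN-like replicate 1 (-0.89), and its second probe was not called in either response. *Nkd2* was not called, at 0.84 and 0.86, and its second probe went the other way (-1.19 in *Sox7* (-/-) cells).

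Of 9 further genes listed as known transcriptional targets, 8 were tested. In each genotype 7 were called lower with Dex, beside 14.1% of all gene names. *Cdx2* was among the 7 only in *Sox7* (+/-) cells and *Myc* only in *Sox7* (-/-) cells. *Ccnd1* (cyclin D1) had a relative signal of 305 to 328% in *Sox7* (+/-) ES cells and 370.3 to 385% in *Sox7* (-/-) ES cells. It was not well above background on any of the 6 XEN-like arrays, at least 34.0-fold lower (adjusted p = 1.1e-07, limma) and at least 50.6-fold lower (adjusted p = 5.3e-08, limma). *Wisp1* read 140.02 to 157% in *Sox7* (+/-) ES cells and was at least 15.9-fold lower with Dex (adjusted p = 4.5e-10, limma), and *Tnfrsf19* was at least 17.3-fold lower in *Sox7* (-/-) cells (adjusted p = 8.5e-10, limma). *T* (brachyury), the primitive streak factor, was well above background in *Sox7* (+/-) ES cells alone of the 4 groups (60.3 to 77.0%), so that its call in *Sox7* (-/-) cells lies between 2 groups near background. It was at least 7.24-fold lower in *Sox7* (-/-) ES cells (adjusted p = 6.5e-06, limma). *Cdx2*, a trophectoderm and gut gene, was lower there too, at -2.12 ± 0.36 (adjusted p = 0.0011, limma), and its Dex response differed between the genotypes by 3.84 ± 0.51 (adjusted p = 0.00047, limma), with no *Sox7* (+/-) XEN-like array well above background. *Myc* read 91.4 to 100.3% in *Sox7* (+/-) ES cells, 51.7 to 66.5% with Dex, 159 to 165% in *Sox7* (-/-) ES cells and 15.1 to 16.3% with Dex, and its responses differed by -2.65 ± 0.13 (adjusted p = 6.0e-07, limma). Between XEN-like cells *Myc* was lower with *Sox7* deleted, at -1.90 ± 0.09 (adjusted p = 5.8e-07, limma), and *Ascl2* was higher, at 2.23 ± 0.17 (adjusted p = 1.2e-05, limma). Over all 71 further Wnt genes listed, 58 were tested. In *Sox7* (+/-) cells 6 were higher and 12 lower, beside 11.0% and 14.1% of all gene names. In *Sox7* (-/-) cells 6 were higher and 14 lower, beside 14.6% and 14.1%. Of the lower calls, 7 in each genotype were among the known targets. *Tle1*, which codes for a Groucho corepressor of TCF/LEF factors, rose by 1.97 ± 0.10 (adjusted p = 6.0e-08, limma) and 2.35 ± 0.10 (adjusted p = 1.3e-08, limma). *Apcdd1*, which codes for a membrane inhibitor of Wnt, was at least 4.60-fold higher in *Sox7* (+/-) cells (adjusted p = 0.00042, limma) and 2.69 ± 0.55 higher on the log2 scale in *Sox7* (-/-) cells (adjusted p = 0.0015, limma).

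**Figure D4:**
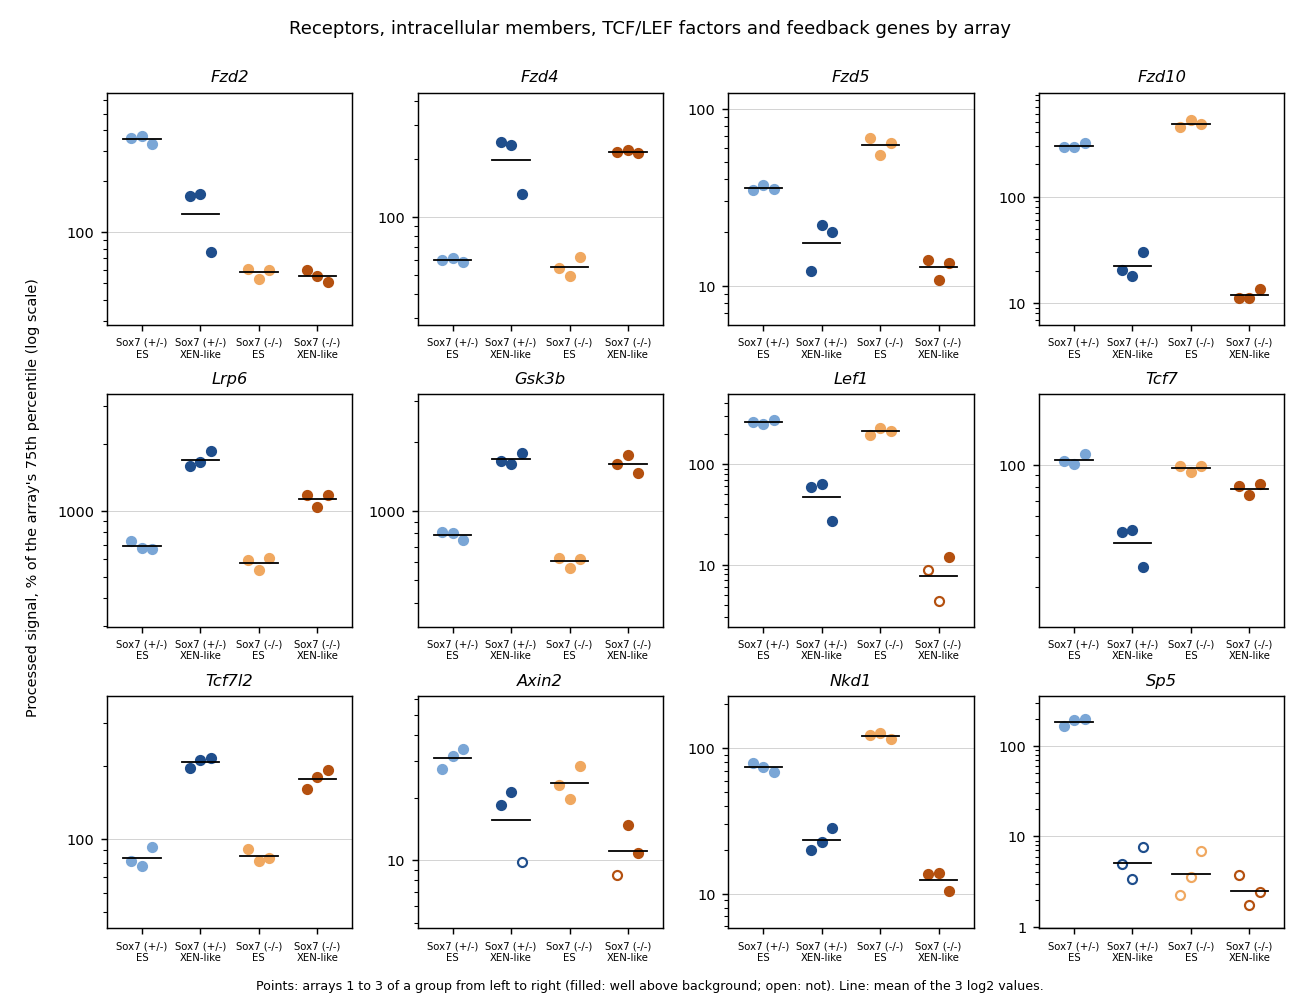
The relative signal of 12 receptor, intracellular, TCF/LEF and feedback genes (y axis, percent of the array's 75th percentile, log scale with its own range in each panel) is plotted for each of the 12 arrays by group, with filled points well above background and a line at the mean of the log2 values. *Fzd10*, *Nkd1* and *Lef1* are lowest in *Sox7* (-/-) XEN-like cells, *Fzd4*, *Gsk3b* and *Tcf7l2* are higher in both XEN-like groups, and *Sp5* has filled points in *Sox7* (+/-) ES cells only.

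Promoter windows were read for the members that RefSeq's table for GRCm38.p6 holds, 51 windows of 41 of the 62 genes, each with the 250 bases before a start site. The letters CTTTGA, the core that TCF/LEF factors bind, occurred on either strand in 8 of the 51 windows (15.7%), beside 13.8% of 32841 promoters in all. The GATA core AGATAA occurred in 5 (9.80%, beside 9.99%) and the Sox core ACAATG in 4 (7.84%, beside 10.69%). Among genes called lower with Dex in both genotypes, 2 of 14 windows, from 9 genes, held the TCF/LEF core and 0 of 14 the GATA core. Among genes called higher in both, 4 of 11 windows, from 9 genes, held the TCF/LEF core and 3 of 11 the GATA core. Windows of 1 gene can overlap, and these numbers were not tested. Windows are printed for *Sp5*, the member with the largest bound on its fall, and for *Sfrp5* and *Dkk1*, antagonist genes called higher in *Sox7* (-/-) XEN-like cells. They are written 5′ to 3′ on the strand of the gene, with matches to any of these letters, or to their reverse complement, in capitals, at *Sp5* chr2:70474673-70474922 (plus strand), *Sfrp5* chr19:42202253-42202502 (minus strand) and *Dkk1* chr19:30549497-30549746 (minus strand).
Sp5: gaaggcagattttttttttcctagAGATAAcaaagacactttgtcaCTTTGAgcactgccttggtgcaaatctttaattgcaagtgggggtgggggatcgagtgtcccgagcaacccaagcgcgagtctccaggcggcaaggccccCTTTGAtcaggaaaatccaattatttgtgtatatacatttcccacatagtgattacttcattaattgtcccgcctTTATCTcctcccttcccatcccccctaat
Sfrp5: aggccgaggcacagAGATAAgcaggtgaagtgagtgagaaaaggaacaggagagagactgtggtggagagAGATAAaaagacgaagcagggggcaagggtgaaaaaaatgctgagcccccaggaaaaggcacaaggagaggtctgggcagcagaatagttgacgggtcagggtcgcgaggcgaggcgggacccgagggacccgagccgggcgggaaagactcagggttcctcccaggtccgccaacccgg
Dkk1: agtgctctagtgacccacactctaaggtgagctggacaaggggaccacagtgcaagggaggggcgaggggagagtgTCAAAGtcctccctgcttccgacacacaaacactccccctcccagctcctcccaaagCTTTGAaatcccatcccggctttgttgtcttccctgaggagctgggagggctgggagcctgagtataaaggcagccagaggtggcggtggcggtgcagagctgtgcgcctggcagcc
The *Sp5* window held 2 TCF/LEF cores and 2 GATA cores, the *Sfrp5* window 2 GATA cores and the *Dkk1* window 2 TCF/LEF cores. A match describes the letters only and is not a binding site.

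Between the ES cells of the 2 genotypes, most Wnt pathway genes called were lower in *Sox7* (-/-) cells. Of the 50 tested, 13 were called lower and 2 higher, 26% and 4% of them, beside 6.63% and 1.97% of all gene names. The 13 included 8 of the 12 tested ligands, *Wnt3*, *Wnt4*, *Wnt7a*, *Wnt7b*, *Wnt8a*, *Wnt9a*, *Wnt10a* and *Wnt11*, with *Wls*, *Sp5*, *Frzb*, *Fzd2* and *Rnf43*. The 2 called higher were *Sfrp1* and *Sfrp4*. Among the 13, *Sp5*, *Wnt3*, *Wnt7a*, *Wnt8a* and *Wnt10a* were tested only because *Sox7* (+/-) ES cells gave a clear signal. In this comparison they could hardly be called higher. With no filter on dim probes the split was 3 higher and 13 lower. With only the 31 genes well above background on all 12 arrays it was 0 higher and 6 lower. The part of the filter in the split was not tested further. The bounds of *Frzb* and *Wnt7a*, given below, are under 2-fold, so these calls rest partly on values near background. With no minimum fold the split was less one-sided, at 11 higher and 18 lower. The median log2 difference of the members was -0.22, against 0.11 over all gene names.

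The largest ligand difference in ES cells with a signal well above background in both groups was that of *Wnt4*, given above array by array, at -4.33 ± 0.24 on the log2 scale (adjusted p = 7.2e-07, limma). *Wnt9a* differed by -1.61 ± 0.16 (adjusted p = 4.7e-05, limma) and *Wnt11* by -1.45 ± 0.10 (adjusted p = 3.7e-06, limma), and in each case the 3 arrays of a group lay close together and apart from the other group. *Wnt7b*, *Wnt8a*, *Wnt3* and *Wnt7a* were not well above background on any *Sox7* (-/-) ES array and were at least 2.80-fold (adjusted p = 6.4e-05), 2.36-fold (1.3e-06), 2.03-fold (0.00093) and 1.70-fold (0.00094) lower by limma. *Wnt10a* differed by -1.71 ± 0.29 (adjusted p = 0.0010, limma). *Wnt1*, *Wnt5a*, *Wnt5b* and *Wnt6* were not called, at 0.12, -0.67, -0.91 and -0.38.

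Among the other members, *Sp5* was at least 20.6-fold lower in *Sox7* (-/-) ES cells (adjusted p = 6.6e-06, limma). *Fzd2* read 362, 370.2 and 332% in *Sox7* (+/-) and 61.0, 52.9 and 60.2% in *Sox7* (-/-) ES cells, a log2 difference of -2.61 ± 0.25 (adjusted p = 3.1e-05, limma). *Wls* differed by -1.13 ± 0.18 (adjusted p = 0.00067, limma), *Rnf43* by -1.08 ± 0.23 (adjusted p = 0.0036, limma), and *Frzb* was at least 1.13-fold lower (adjusted p = 0.00012, limma). In contrast, *Sfrp1* was higher by 1.67 ± 0.23 (adjusted p = 0.00033, limma), with 179.6, 151 and 158% against 50.5, 53.8 and 49.2%. *Sfrp4* was higher by 1.19 ± 0.25 (adjusted p = 0.0040, limma), with 219, 223 and 212% against 93.4, 94.8 and 98.2%. The brightest probe of *Tcf7l2* gave 0.03, but its other 2 probes were called lower, at -1.49 ± 0.15 (adjusted p = 4.8e-05, limma) and, from a dim *Sox7* (-/-) signal, at least 1.77-fold (adjusted p = 0.0014, limma).

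Markers of other cell types moved with this comparison. Of the trophectoderm list 4 of 5 tested genes were lower in *Sox7* (-/-) ES cells, with a summed relative signal of 718 to 725% in *Sox7* (+/-) and 313 to 343% in *Sox7* (-/-) ES cells, and *Elf5* not well above background in any group. Of visceral endoderm markers 4 of 6 tested were lower (sums of 7434 to 7677% and 3801 to 4437%), with *Afp* and *Apoa1* not well above background in any group. Of parietal endoderm markers 5 of 7 were lower (sums of 98474 to 103357% and 77387 to 87771%). Of the 4 primitive streak markers tested only *T* was lower, with sums over all 4 of 277 to 292% and 161 to 167%, and *Mixl1* and *Mesp1* not well above background. Of ES cell markers 3 of 8, *Esrrb*, *Zfp42* and *Klf4*, were higher (sums of 28180.1 to 28978% and 54433 to 58059%). The part of these genes in the Wnt result was not tested. The 2 ES groups lay on different slides, so genotype and slide cannot be told apart between them. With slide as a block 11 genes were called, but the slide effect then came from the *Sox7* (-/-) XEN-like arrays only. Those no longer called were *Wnt7a* (-2.002), *Wls* (-1.05), *Rnf43* (-1.02) and *Sfrp4* (0.70), while *Wnt4* was at -5.16, *Wnt9a* at -1.66 and *Wnt11* at -1.55. The authors' unscaled values gave 2 higher and 6 lower, and normexp background correction 2 higher and 4 lower.

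In XEN-like cells the genotypes differed in fewer members, 4 called higher and 5 lower in *Sox7* (-/-) cells, 8% and 10%, beside 4.15% and 3.41% of all gene names. Those higher were 3 antagonists and a receptor, and those lower were *Lef1*, *Wnt4*, *Fzd2*, *Rspo3* and *Frzb*. Of the ligands other than *Wnt4* none of the 11 tested was called by limma, and 3 of them passed an unadjusted p under 0.05. *Sfrp5* had a relative signal of 919.6, 881 and 885% in *Sox7* (+/-) and 5258, 4898 and 4491% in *Sox7* (-/-) XEN-like cells, a log2 difference of 2.44 ± 0.12 (adjusted p = 5.8e-07, limma). *Sfrp4* differed by 1.77 ± 0.25 (adjusted p = 0.00066, limma) and *Dkk1* by 1.10 ± 0.10 (adjusted p = 3.5e-05, limma). For all 3 the groups did not overlap.

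*Lef1* was lower in *Sox7* (-/-) XEN-like cells, at 8.82, 4.36 and 11.99% against 59.4, 62.7 and 27.2% (-2.59 ± 0.37, adjusted p = 0.00066, limma), and its second probe was called in the same direction. *Wnt4* differed by -1.504 ± 0.239 (adjusted p = 0.0012, limma), *Rspo3* by -1.09 ± 0.13 (adjusted p = 0.00025, limma) and *Fzd2* by -1.22 ± 0.25 (adjusted p = 0.0046, limma). *Frzb* differed by -1.01 ± 0.25 (adjusted p = 0.012, limma), at the 2-fold limit, and was under it when *Sox7* (+/-) XEN-like replicate 1 (-0.90) or 2 (-0.82), or *Sox7* (-/-) XEN-like replicate 1 (-0.99) or 3 (-0.98), was left out. *Fzd7* read 239, 254 and 122% and 426, 403 and 405% (1.08 ± 0.23, adjusted p = 0.0052, limma). Without the third *Sox7* (+/-) XEN-like array *Fzd7* was at 0.74 and no longer called, and its second probe was at -0.12. *Dkk1* was at 0.997 without that array, just under 2-fold, and 8 genes were called in all, 2 higher and 6 lower, with *Wnt5a* among the latter.

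Markers of visceral endoderm, the outer extraembryonic layer that surrounds the egg cylinder, moved with this comparison too. Of these, 5 of 6 tested were higher in *Sox7* (-/-) XEN-like cells, with summed relative signals of 6283 to 6369% in *Sox7* (+/-) and 21739.7 to 23519% in *Sox7* (-/-) XEN-like cells, and *Afp* and *Apoa1* not well above background. Trophectoderm markers were higher in 3 of 5 tested (sums of 163 to 241% and 390.3 to 419.6%), and *Esrrb* and *Zfp42* among 8 ES cell markers were higher (sums of 5399 to 5866% and 7570 to 8270.3%). No parietal endoderm marker of 7 was called by limma, and 6 passed an unadjusted p under 0.05 (sums of 167617 to 189116% and 146555 to 154008%). Their part in the Wnt result was not tested. The count was 8 with slide as a block, where *Frzb* was at -0.99, and 9 within slide 2. With scaling to spike-in controls, which ended the calls of *Frzb* (-0.76), *Fzd2* (-0.97) and *Rspo3* (-0.85), the split was 6 higher and 2 lower, and with the authors' unscaled and unsubtracted values it was 5 higher and 0 lower, while the median of all tested probes moved from 0.00 to 0.25 and 0.34.

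The difference between the 2 Dex responses was tested directly, as the response of *Sox7* (-/-) cells minus that of *Sox7* (+/-) cells. It was called in 19 members, 13 higher and 6 lower, 26% and 12% of the 50, beside 7.05% and 3.16% of all gene names. Of the 13, 7 were ligands, namely *Wnt3*, *Wnt4*, *Wnt7a*, *Wnt7b*, *Wnt8a*, *Wnt9a* and *Wnt10a*, and the others were *Sp5*, *Wls*, *Frzb*, *Fzd2*, *Rspo1* and *Sfrp5*. This comparison uses the same ES arrays as the comparison of ES cells above. The 26% includes *Sp5*, *Wnt3*, *Wnt7a*, *Wnt8a* and *Wnt10a*, which were tested only through *Sox7* (+/-) ES cells and could hardly show a lower difference. With only the 31 genes well above background on all 12 arrays, 6 were called higher and 4 lower. For *Wnt9a*, whose levels in the 2 XEN-like groups differed with a 95% interval of -0.36 to 0.36 on the log2 scale, the response differed by 1.60 ± 0.23 (adjusted p = 0.00074, limma). For *Wnt4* it differed by 2.83 ± 0.34 (adjusted p = 0.00023, limma). In *Wls* it differed by 1.68 ± 0.25 (adjusted p = 0.00088, limma), in *Fzd2* by 1.39 ± 0.35 (adjusted p = 0.015, limma) and in *Rspo1* by 1.06 ± 0.19 (adjusted p = 0.0027, limma). *Sfrp5* differed by 1.77 ± 0.16 (adjusted p = 4.3e-05, limma), with *Sox7* (-/-) minus *Sox7* (+/-) differences of 2.44 ± 0.12 in XEN-like cells and 0.67 ± 0.12 in ES cells. The sizes for *Wnt10a* (2.25), *Wnt7b* (1.98) and *Frzb* (1.11) rest on at least 1 group with no array well above background. For *Sp5* (4.60), *Wnt3* (2.63), *Wnt7a* (2.85) and *Wnt8a* (2.43), *Sox7* (+/-) ES cells were the only group with such an array. Their difference thus restates the signal lost from that group and holds no measured response of *Sox7* (-/-) cells. The *Frzb* call was lost when any array other than *Sox7* (+/-) ES replicate 1 or *Sox7* (+/-) XEN-like replicates 1 and 2 was left out (0.81 to 1.14), and its sign turned under normexp background correction (-0.15). *Rspo1* was no longer called without *Sox7* (+/-) XEN-like replicate 2 (0.92) or *Sox7* (-/-) XEN-like replicate 3 (0.99).

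Markers of other cell types moved with the difference between responses as well. All 6 tested visceral endoderm markers had a higher response in *Sox7* (-/-) cells, with summed relative signals of 7434 to 7677% and 6283 to 6369% without and with Dex in *Sox7* (+/-) cells and 3801 to 4437% and 21739.7 to 23519% in *Sox7* (-/-) cells. Trophectoderm markers had a higher response in 4 of 5 tested, with sums of 718 to 725% and 163 to 241% in *Sox7* (+/-) cells and 313 to 343% and 390.3 to 419.6% in *Sox7* (-/-) cells. It was higher in 3 of 7 parietal endoderm markers, higher in 2 and lower in 1 of 4 primitive streak markers, and higher in 1 and lower in 2 of 8 ES cell markers. The part of these genes in this Wnt result was not tested.

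The 6 members with a lower response in *Sox7* (-/-) cells were *Lef1* (-2.28 ± 0.53, adjusted p = 0.011, limma), *Sfrp1*, *Nkd1*, *Fzd10*, *Fzd3* and *Fzd5*. *Nkd1* differed by -1.61 ± 0.20 (adjusted p = 0.00031, limma), with *Sox7* (-/-) minus *Sox7* (+/-) differences of 0.71 in ES cells and -0.90 in XEN-like cells. *Fzd10* differed by -1.57 ± 0.24 (adjusted p = 0.0011, limma) with such differences at 0.68 and -0.89. *Sfrp1* differed by -1.68 ± 0.33 (adjusted p = 0.0044, limma) and *Fzd5* by -1.28 ± 0.28 (adjusted p = 0.0085, limma). *Fzd3* read 31.9, 30.2 and 26.5% and 38.9, 43.6 and 48.1% in *Sox7* (+/-) cells, and 39.2, 54.4 and 36.3% and 23.8, 19.98 and 23.8% in *Sox7* (-/-) cells, so that its Dex responses were 0.56 and -0.92, each short of 2-fold, and differed by -1.48 ± 0.22 (adjusted p = 0.00085, limma). With slide as a block 15 differences were called, and *Lef1* (-2.08), *Fzd5* (-1.14), *Fzd2* (1.51), *Frzb* (1.07) and *Wnt7a* (2.40) were not, while *Wnt11* (1.06) was in addition. Scaling to spike-in controls ended the call of *Fzd5* (-0.88). Without the third *Sox7* (+/-) XEN-like array 22 were called, *Frzb* (0.81) no longer and *Porcn*, *Wnt5a*, *Wnt5b* and *Wnt11* in addition. The split was 17 higher and 5 lower with scaling to spike-in controls and 13 higher and 1 lower with the authors' unscaled values, while the median of all tested probes moved from -0.09 to 0.31 and 0.24.

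The 12 members that were not tested were *Wnt2*, *Wnt2b*, *Wnt3a*, *Wnt8b*, *Wnt9b*, *Wnt10b*, *Wnt16*, *Dkk2*, *Dkk4*, *Wif1*, *Lgr5* and *Rspo2*. The brightest probe of 9 of them was well above background on no array, and that of *Dkk2*, *Wif1* and *Wnt8b* on 1 array each. *Wif1*, a secreted inhibitor that binds Wnt ligands, had a relative signal of 58.5% on the third *Sox7* (+/-) ES array and of 1.27 to 5.68% on the other 11, of which none was well above background. Of the 50 tested members 38 were called in at least 1 of the 5 comparisons, and the 12 called in none were *Wnt1*, *Wnt5a*, *Dkk3*, *Fzd8*, *Lrp5*, *Axin1*, *Apc*, *Ctnnb1*, *Tcf7l1*, *Nkd2*, *Lgr4* and *Znrf3*.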

How the data were processed

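Total RNA was hybridised by the authors to 12 1-colour Agilent mouse arrays, 3 in each of 4 groups, and the deposited intensities were background-subtracted processed signals from Agilent Feature Extraction (version 10.7.3.1 per the file headers). Nothing between arrays had been scaled. A deposited table of the same arrays held intensities within 0.5% of the mean spot signal and served as an alternative. No spot was saturated, and the 75th percentile of the processed signal was 252 to 416 units over arrays, with 41.7 to 52.3% of spots well above background. The number of arrays limits the precision.

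Control spots and outlier spots were left out, spots of a probe were averaged, and log2 signals were centred on the array's 75th percentile. Probes well above background on every array of some group were tested (25940 of 55681). All 12 arrays entered 1 limma fit of 4 group means (limma 3.58.1, R 4.3.3), from which 5 contrasts were taken, with Benjamini-Hochberg adjustment over all tested probes. The fit was tested on simulated data. A gene was read from its brightest tested probe. Every member was accounted for, with full statistics for the called members among the 30 with the largest absolute log2 differences, and of the further Wnt genes the 2 highest and 2 lowest called per comparison were named. The members, marker lists and other gene lists were chosen with earlier results of these data known. Alternatives changed the background correction, scaling, filter, probe rule, variance model, slide or replicate block and the arrays used. Motifs were searched on both strands in RefSeq promoter windows of GRCm38.p6, and no coordinates of the arrays' own build (mm9) were set against them.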

Additional observations from a re-analysis of the deposited data

Results flagged for a closer look

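The Dex response of 19 Wnt pathway genes differed between the genotypes by limma's test of the difference itself, given here as the response of *Sox7* (-/-) cells minus that of *Sox7* (+/-) cells on the log2 scale, in 3 arrays a group. It was higher for the ligands *Wnt7a* (2.85), *Wnt4* (2.83), *Wnt3* (2.63), *Wnt8a* (2.43), *Wnt10a* (2.254), *Wnt7b* (1.98) and *Wnt9a* (1.60), for the target gene *Sp5* (4.60), and for *Sfrp5* (1.77), *Wls* (1.68), *Fzd2* (1.39), *Frzb* (1.11) and *Rspo1* (1.06). It was lower for *Lef1* (-2.28), *Sfrp1* (-1.68), *Nkd1* (-1.61), *Fzd10* (-1.57), *Fzd3* (-1.48) and *Fzd5* (-1.28). Of the 50 tested, 26% were called higher and 12% lower, beside 7.05% and 3.16% of all gene names. The 26% includes *Sp5*, *Wnt3*, *Wnt7a*, *Wnt8a* and *Wnt10a*, which were tested only through *Sox7* (+/-) ES cells and could hardly show a lower difference. For *Sp5*, *Wnt3*, *Wnt7a* and *Wnt8a* only *Sox7* (+/-) ES cells gave a signal well above background. Their *Sox7* (-/-) response was therefore not measured. The sizes for *Wnt10a*, *Wnt7b* and *Frzb* rest on at least 1 group with no array well above background. With slide as a block *Lef1*, *Fzd5*, *Fzd2*, *Frzb* and *Wnt7a* were not called, and the sign of *Frzb* turned with normexp (-0.15). Normexp gave 6 higher and 3 lower in all, and *Wnt7b* was at 0.26 there (adjusted p = 0.45, limma).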

How the results depend on the processing

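Of 102 calls of single members over the 5 comparisons, 40 were lost with normexp background correction, 31 with the authors' unscaled values, 13 with slide as a block, 10 with scaling to spike-in controls and at most 6 under any other setting that kept the 2-fold limit and the 50 genes. The one sign that turned was that of the difference between responses in *Frzb*, at -0.15 with normexp. Normexp was run with an offset of 50 units, beside a 75th percentile of 252 to 416 units over arrays. Such an offset draws log2 differences of dim signals toward 0 by construction. Counts of called genes moved by over 1.5 times in 11 cases. With only the 31 genes well above background on all 12 arrays, 17 and 16 were called in the Dex responses of *Sox7* (+/-) and *Sox7* (-/-) cells, 5 between XEN-like cells, 6 between ES cells and 10 for the difference between responses. The smaller set of genes tested lowers these counts by construction. With normexp 6 were called between ES cells and 9 for the difference between responses, and with the authors' unscaled values 5 between XEN-like cells and 8 between ES cells. The cause was not tested. With no minimum fold, 22 were called between XEN-like cells and 29 (11 higher and 18 lower) between ES cells. Leaving out each array in turn gave 30 to 33 and 28 to 30 in the 2 Dex responses, 8 to 11 between XEN-like cells, 15 to 16 between ES cells and 18 to 22 for the difference between responses. Replicate numbers did not pair the samples, since same-numbered arrays deviated together with r from -0.05 to 0.13, and with a replicate block the counts were 31, 28, 9, 15 and 19, as without it. Probes near background limit the ligands most, since 7 of the 19 ligand genes were not tested.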
